A study of Mus musculus with 16 samples.

Results

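Interferon response and antigen presentation genes of mouse liver were read in 16 male mice, and the deposited table named 60 of them among its 7413 named genes. Members were chosen by symbol alone, as genes named H2, Ifi, Ifit, Irf with a number, Oas, Mx, Isg, Stat with a number, Tap, Gbp, Irgm, Psmb8, Psmb9 or Psmb10, together with B2m. A gene was read by its probe of highest mean. The name rule fits 140 genes of the RefSeq table, and those without a named probe, among them Isg15, Tap1, Tap2, Psmb9, Stat2 and Ifit1, were not analysed here. Of the 60 genes, 38 had a probe that stood above the noise of its array in at least 6 animals and were tested, and 22 had not. The symbols H2-Ke6 and Irf2bpl fit the name rule but belong to neither system. H2-Ke6 is a hydroxysteroid dehydrogenase gene that lies within the MHC region.

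The study compared 7 mice carrying a Lactb transgene with 9 FVB wildtype mice. The Lactb protein lies in mitochondria and is related to serine proteases. All animals were 23 weeks old. All had eaten chow with 4% fat up to 11 weeks of age and chow with 6% fat from then on. The promoter of the transgene and the number of founder lines are not given in the sources used here, no named probe read Lactb, and genotypes are used as labelled. Animals carry a number within their genotype that only names them, and nothing beyond the labels says that each array is a separate animal, so p-values measure the spread between these arrays.

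Interferons are secreted proteins that bind receptors on nearly all cells. Through Jak kinases they activate Stat proteins, which with Irf9 enter the nucleus and turn on genes carrying an interferon-stimulated response element in their promoters. The products include antiviral effectors and the machinery of antigen presentation. MHC class I molecules, a heavy chain bound to the B2m light chain, show peptides from inside the cell, cut by the immunoproteasome subunits Psmb8, Psmb9 and Psmb10 and pumped by Tap1 and Tap2. MHC class II molecules show peptides from taken-up proteins and are found on macrophages, dendritic cells and B cells. In liver, Kupffer cells and sinusoidal endothelial cells are antigen presenting cells too, while hepatocytes make up most of the RNA.

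The interferon-stimulated response element was searched in the RefSeq promoters of the members (build GRCm38.p6) as GAAANNGAAA on both strands, in the 250 bases before the transcript start that the promoter table uses. That start was the gene's outermost start for 72.5% of genes. It was present in 13 of the 31 tested members whose promoter was in the table (41.9%), and in 936 of 27025 promoters of all genes (3.46%). The GAS element, the site of Stat dimers, was searched as TTCNNNGAA, which reads the same on both strands, and was present in 5 of the 31 (16.1%) against 8.13% of all promoters. A match is a run of letters and not a measured binding site. The windows below are a selection from the members with a match, with the match in capitals and read in the direction of the gene. Ifit3, Ifitm2, Ifi203, Ifi205 and Stat4 also held a match, and their windows are not shown. Psmb10 was among the 31 and held no match to GAAANNGAAA. Mx2 and H2-T10 had no promoter in the table, and the promoter of H2-Bl is not shown.
B2m, chr2:122147536-122147569, plus strand: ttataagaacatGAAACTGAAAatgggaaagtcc
H2-T23, chr17:36032804-36032837, minus strand: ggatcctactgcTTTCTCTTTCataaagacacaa
H2-T22, chr17:36042912-36042945, minus strand: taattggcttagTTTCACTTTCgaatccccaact
Gbp2b, chr3:142594698-142594731, plus strand: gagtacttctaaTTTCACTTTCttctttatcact
Gbp2, chr3:142620592-142620625, plus strand: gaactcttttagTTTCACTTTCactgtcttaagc
Irgm2, chr11:58214901-58214934, plus strand: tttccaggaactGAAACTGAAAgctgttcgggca
Oas1a, chr5:120907526-120907557, minus strand: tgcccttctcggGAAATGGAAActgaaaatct
Oas1g, chr5:120887614-120887643, minus strand: tgcccttctcggGAAATGGAAActgaaaat
Gbp2 and Gbp2b, neighbours on chromosome 3, carried the same 10 letters within the match. Oas1a and Oas1g had the same bases around it, and both held a further match that overlaps the one shown. For Oas1a the start used lies 19 bases inside the gene, so its window crosses the gene's outermost start.

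Each array gave background-subtracted intensities for 24048 probes, on a linear scale. Between 9907 and 11564 probes per array stood above a noise limit of 17.1 to 32.5 intensity units. The summed intensity of 3 hepatocyte markers (Apoa1, Serpina1a and Trf) was 42560.3 to 71807.4 and that of 3 endothelial markers 4133.9 to 6151.5, so the labelled tissue's defining genes stood far above noise in every animal. Macrophage markers (5 of 12 listed, Cd68, Csf1r, Lyz2, Gpnmb and Mmp12) summed to 384.9 to 10004.3. Cd3e, the only T cell marker tested, ranged from 4.0 to 64.7. None of the 7 dendritic cell markers listed had a named probe. Differences below are on the log2 scale after background correction and quantile normalization, transgenic minus wildtype, while levels are deposited intensities unless a log2 level is named.

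Before any comparison of genotypes, one animal of each genotype stood apart in MHC class I genes. Transgenic animal 6 and wildtype animal 5 were far above the other 14 animals for a set of probes from the MHC region of chromosome 17. H2-T23, which encodes the nonclassical class I heavy chain Qa-1, had a second, dimmer probe that read 1661.1 in transgenic animal 6 and 1666.7 in wildtype animal 5. In the other 14 animals this probe read -0.2 to 29.2, within or close to the noise. The gap between the lower of these 2 animals and the highest of the rest was 4.35 on the log2 scale.

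H2-Bl, a class I gene that RefSeq lists as a transcribed pseudogene (chr17:36080110-36084249), read 389.5 and 349.4 in the same animals. It read 0.1 to 29.4 in the others, a gap of 2.16 on the log2 scale. H2-T10, listed as a transcribed pseudogene too (chr17:36115871-36121444), read 615.0 in transgenic animal 6 and 627.0 in wildtype animal 5. The other 14 animals lay between 35.3 and 92.2, a gap of 2.02. H2-T10 therefore gave the same step in an animal of either genotype.

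The brighter probe of H2-T23 (chr17:36029977-36032701) read 2108.9 and 1907.6 in this pair of animals. The others lay between 883.4 and 1062.5, so the same gene showed a narrower gap of 0.78 through this probe. H2-Q6 read 89.4 and 89.2 against -11.7 to 38.5. H2-Q5 read 1823.6 and 1758.7 against 850.7 to 1391.7. H2-Q8 read 70.9 and 102.9 against 17.2 to 53.3. These Q genes are nonclassical class I genes of the Qa region, and RefSeq lists H2-Q5 as a transcribed pseudogene. For each of these Q genes both animals lay above all others.

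Other class I genes did not separate these animals. H2-T22, which lies between H2-T23 and H2-Bl at chr17:36037128-36042742, read 225.4 in transgenic animal 6 and 169.8 in wildtype animal 5, with transgenic animal 7 between them at 180.4. H2-K1, a classical class I heavy chain (chr17:33996012-34000619), read 1160.5 and 1382.0 within a range of 954.4 to 1465.2. B2m, on chromosome 2, read 17503.5 and 21016.7 within a range of 15535.2 to 24025.5. H2-D1, a classical heavy chain whose probe stood above noise on 1 array, read 0.2 and -1.7, and up to 34.8 elsewhere.

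Across all 24048 probes, 9 were higher in both of these animals than in each of the others by over 0.5 on the log2 scale, and 7 by over 1. Of the 9, 4 belonged to no named gene, 4 were the probes of H2-T23, H2-Bl and H2-T10, and 1 belonged to Mrps10, a mitochondrial ribosomal protein gene on the same chromosome (chr17:47368887-47381418). Mrps10 read 834.1 and 762.5 against 211.6 to 333.9. With gaps above or below the rest both counted, the next widest of any pair was 1.06, for transgenic animal 5 and wildtype animal 6. No other pair had a gap over 2, whereas this pair had 6. Class I genes are close copies of each other, so a probe may read more than the gene it is named for, and which transcripts each probe read was not tested.

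**Figure D1:**
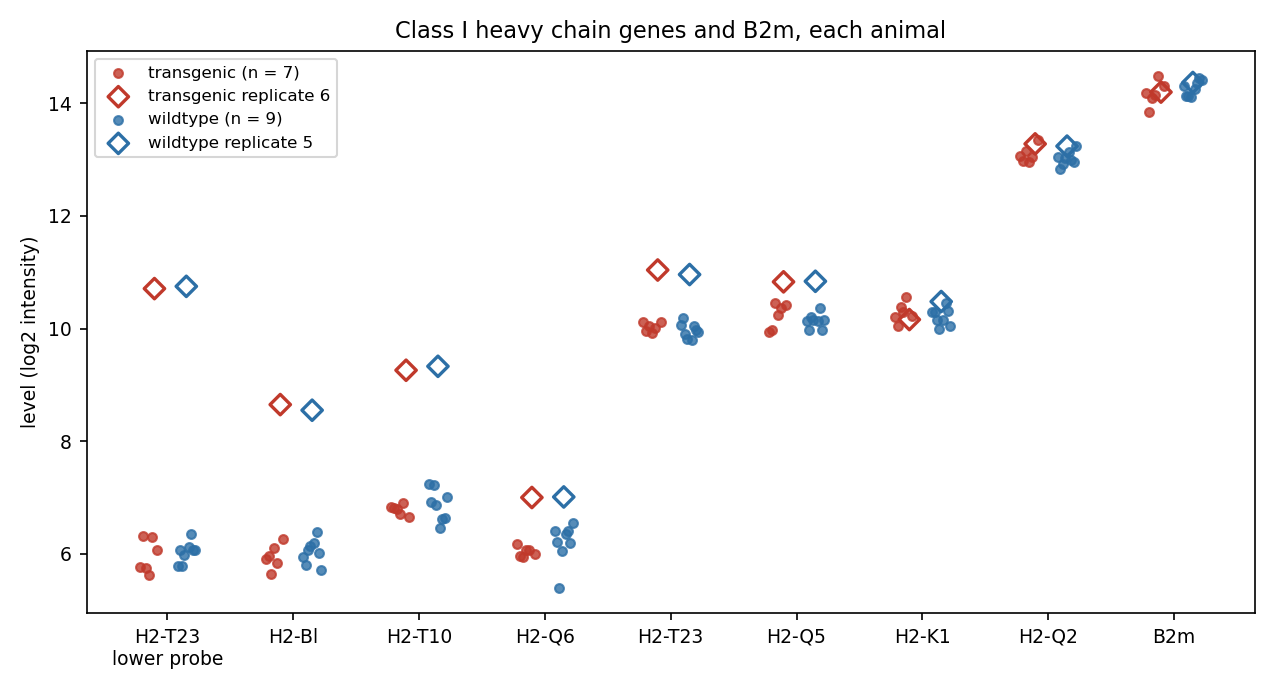
Log2 level (y axis) of 8 class I heavy chain probes and B2m (x axis) in each of the 16 animals, red for transgenic and blue for wildtype, with open diamonds for transgenic animal 6 and wildtype animal 5 (called replicates in the key). The diamonds lie far above the dots for the lower H2-T23 probe, H2-Bl and H2-T10, and among them for H2-K1 and B2m.

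No member passed the test between genotypes. In the limma fit with Benjamini-Hochberg adjustment over all tested probes, 0 of 38 members and 0 of 11317 probes (0%) had an adjusted p under 0.05, and the lowest adjusted p among members was 0.932. At an unadjusted p under 0.05, 2 of the 38 members were counted, against 332 of 11317 probes (2.93%). Both were lower in transgenic livers, a direction and threshold that 205 of all tested probes met (1.81%). They were Mx2 and Gbp2b. Of the members 21 had the higher mean in transgenic and 17 in wildtype livers. Their median difference was 0.029 on the log2 scale, beside -0.004 over all tested probes, and their median SD over animals was 0.29, beside 0.20. For all 38 the values of the genotypes overlapped. A change of 2-fold either way fell outside the 95% interval for 37 of 38 members, all but Ifi27l2a, and a change of 1.5-fold for 31. These limits are on the scale with an offset of 16, which compresses the folds of dim probes. With a floor of 16 on the deposited values and no offset, they held for 30 and 20 members, and Mx2, Gbp2b, Oas1a, Ifit3, H2-Q6, H2-T10 and Irf7 were then also beyond the 2-fold limit.

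**Figure D2:**
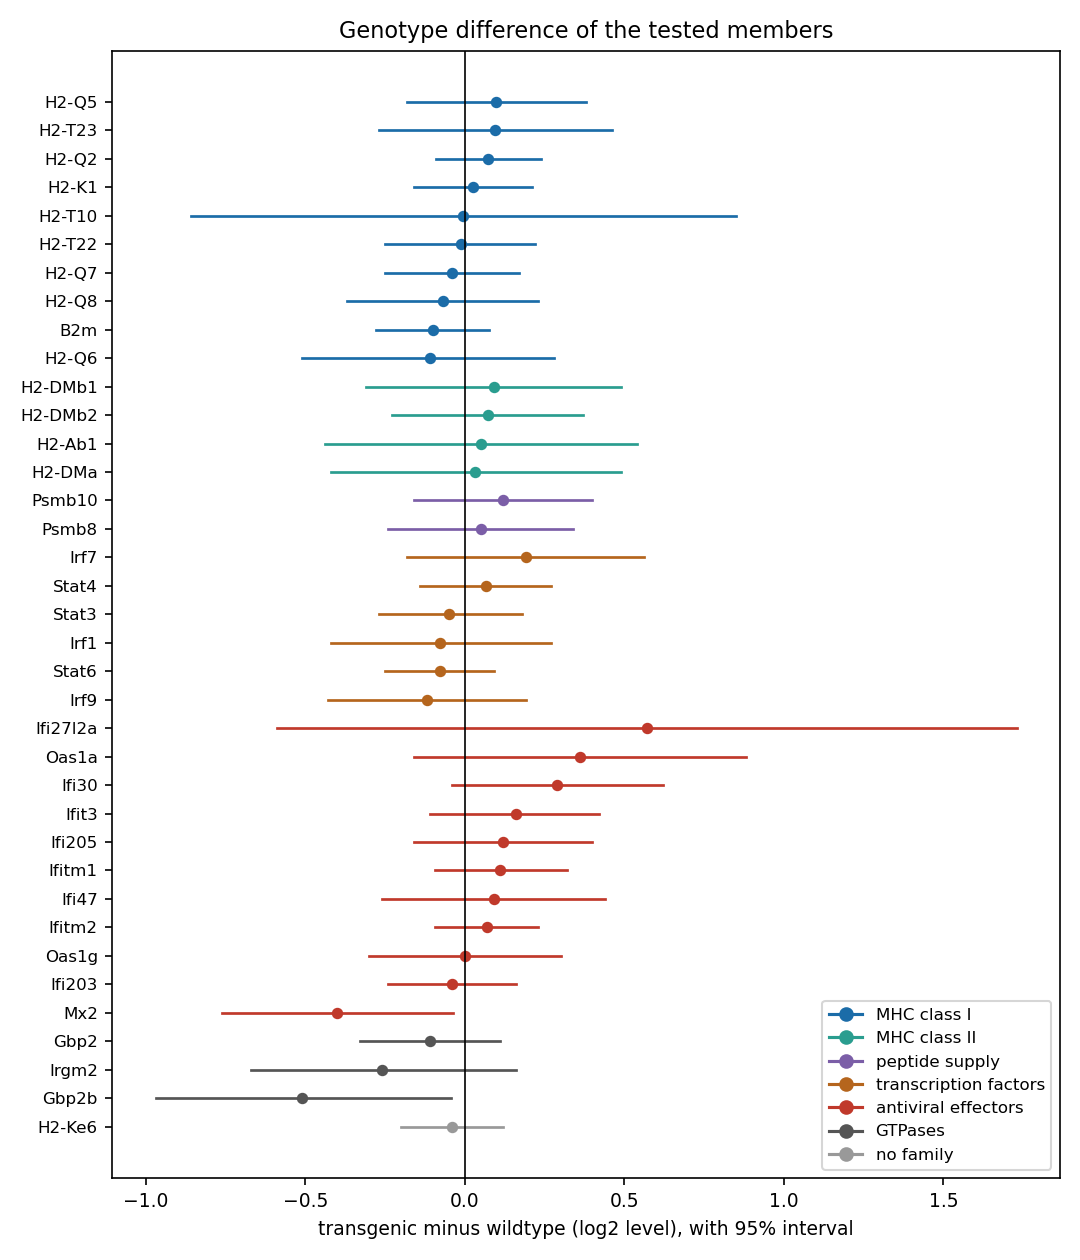
Difference in log2 level, transgenic minus wildtype (x axis), of 37 of the 38 tested members (y axis), with the 95% interval of the limma fit as a line and colours for families. The intervals of Mx2 and Gbp2b end just below 0 and all others span it.

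Mx2 encodes a dynamin-like antiviral GTPase in many mammals, and RefSeq lists the mouse gene of the reference strain as a transcribed pseudogene (chr16:97536081-97560901). Its intensity was 29.9 to 169.3 in transgenic livers with a median of 63.5, and 66.6 to 173.0 in wildtype livers with a median of 112.6. Transgenic animals 2, 1 and 7 were the lowest of all, while transgenic animal 3, at 169.3, stood close to the highest wildtype animal. The log2 level was 6.96 ± 0.46 (SD, n = 7) against 7.36 ± 0.29 (SD, n = 9). In limma the difference was -0.40 (SE 0.17), 1.32-fold lower, with an unadjusted p of 0.0328 and an adjusted p of 0.932, and 1 transgenic animal was above the wildtype mean. With a floor of 16 in place of the offset the difference was -0.68 (SE 0.29).

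Gbp2b, a guanylate-binding protein that acts against bacteria and viruses inside cells, lies at chr3:142594816-142619179. It read 129.8 to 228.2 in transgenic livers (median 190.5) and 135.5 to 666.3 in wildtype livers (median 264.3). Wildtype animal 9 stood far above the rest at 666.3, with 329.6 next. The log2 level was 7.83 ± 0.23 (SD, n = 7) against 8.34 ± 0.60 (SD, n = 9). In limma the difference was -0.51 (SE 0.22), with an adjusted p of 0.932, and no transgenic animal reached the wildtype mean. Without wildtype animal 9 the difference was -0.35.

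The other tested Gbp and Irgm genes, Irgm2 and Gbp2, also had the lower mean in transgenic livers, and neither passed any threshold. Irgm2, an immunity-related GTPase that acts at the membranes around intracellular parasites, read 649.3 to 1455.2 in transgenic livers (median 795.2). In wildtype livers it read 621.9 to 1788.3 (median 961.2). Wildtype animal 9 was highest here too, followed by wildtype animal 4 and transgenic animal 3. The difference was -0.26 (SE 0.20) for Irgm2 and -0.11 (SE 0.11) for Gbp2. Of the untested Gbp genes Gbp9 stood above noise on 1 array, and Gbp4, Gbp5 and Gbp6 on 0 arrays.

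**Figure D3:**
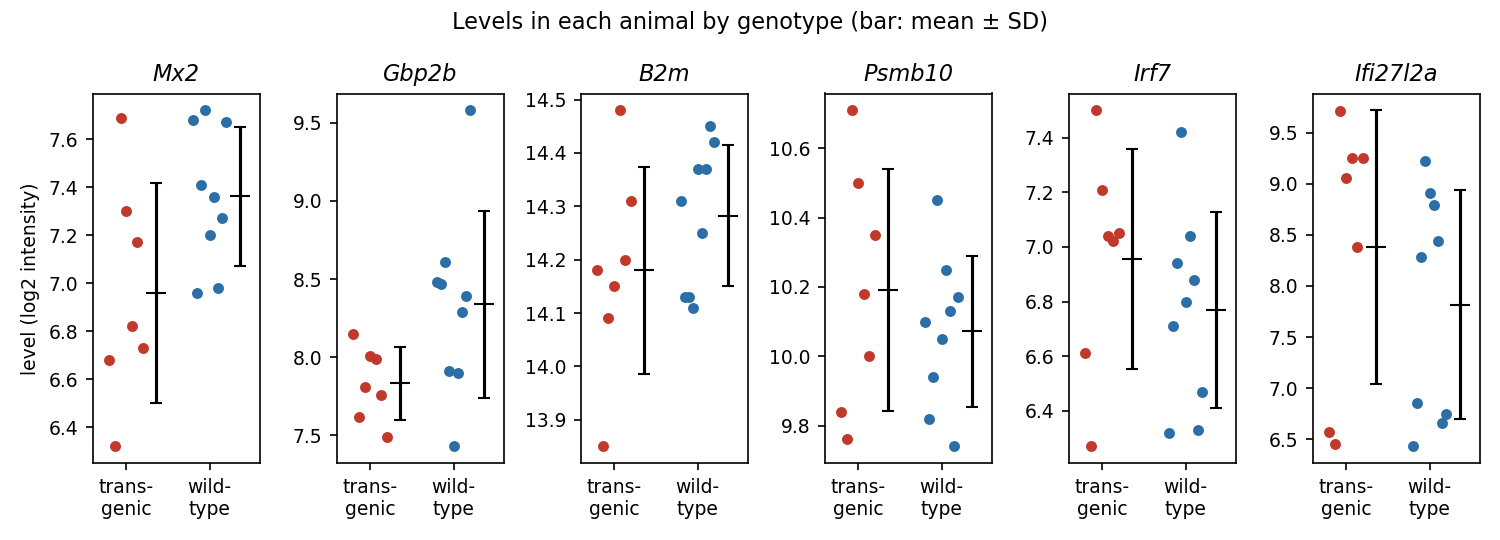
Log2 level (y axis, a scale of its own in each panel) of Mx2, Gbp2b, B2m, Psmb10, Irf7 and Ifi27l2a in each transgenic (red, n = 7) and wildtype (blue, n = 9) animal, with bars for mean ± SD. Values of the genotypes overlap in every panel, and Ifi27l2a falls into a low and a high set within each genotype.

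Among antiviral effectors 9 of 11 tested members had the higher mean in transgenic livers, beside 48.7% of all tested probes. Their median difference was 0.11, and 0 passed the test. With the first principal component as a covariate Ifi27l2a (-0.084), Ifi47 (-0.024) and Oas1g (-0.12) turned lower, and Ifi203 (0.016) turned higher. Ifi27l2a, a small interferon-induced membrane protein, differed by 0.57 (SE 0.55), with a 95% interval of -0.59 to 1.73. It read 37.0 to 822.1 in transgenic livers (median 523.3) and 40.1 to 582.9 in wildtype livers (median 253.2). The values fell into 2 ranges with nothing between 59.4 and 253.2, and each genotype had animals in both. Its SD over all animals was 1.21 on the log2 scale.

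Ifi30, a lysosomal thiol reductase that unfolds proteins for class II presentation, read 143.6 to 364.6 in transgenic livers (median 290.7). In wildtype livers it read 124.8 to 298.7 (median 186.9). Transgenic animals 3 and 7 were highest, and the difference of 0.29 (SE 0.16) had an adjusted p of 0.932 in limma. Oas1a, an oligoadenylate synthetase that senses double-stranded RNA, read -5.8 to 82.5 in transgenic livers (median 51.5) and -18.6 to 35.5 in wildtype livers (median 19.7). It stood above noise on 8 arrays, and its difference was 0.36 (SE 0.25), or 0.71 (SE 0.33) with a floor of 16. Oas1g, a close copy, differed by 0.001 (SE 0.14) through its main probe and by 0.14 (SE 0.17) through another. The copies may share signal.

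Ifit3, a protein that binds viral RNA complexes, read 14.5 to 52.2 in transgenic livers (median 34.7) and 6.5 to 55.5 in wildtype livers (median 17.6). Its difference was 0.16 (SE 0.13), or 0.44 (SE 0.31) with a floor of 16, and it was above noise on 9 arrays. Ifitm1 and Ifitm2 are membrane proteins that hinder viral entry. Ifitm1 read 7173.3 to 9580.6 in transgenic livers (median 7443.4) and 6190.7 to 9042.2 in wildtype livers (median 7273.9). Ifitm2 read 2551.5 to 3153.4 (median 2664.0) and 2202.1 to 3029.7 (median 2704.3). Transgenic animal 3 was highest for both, wildtype animal 2 lowest for both, and the differences were 0.11 (SE 0.098) and 0.068 (SE 0.077). The DNA-sensing p200 family members Ifi203 and Ifi205 differed by -0.042 and 0.12, and Ifi47, an immunity-related GTPase by function, by 0.090. Mx1 stood above noise on 1 array, and Ifi202b, Ifi209, Ifi44l, Ifit1bl2, Ifitm7 and Oas3 on 0 arrays.

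Of the transcription factors 2 of 7 tested members were higher and 5 lower in transgenic livers, with a median difference of -0.077. Irf7, which amplifies type I interferon production, read 27.2 to 143.5 (median 83.8) against 24.4 to 130.0 (median 66.2), a difference of 0.19 (SE 0.18). The differences were -0.12 (SE 0.15) for Irf9, the DNA-binding partner of activated Stat proteins, and -0.077 (SE 0.16) for Irf1. Stat3, which carries the acute phase signal, differed by -0.050 (SE 0.11), and Stat4 and Stat6, known from helper T cell responses, by 0.065 (SE 0.097) and -0.079 (SE 0.081).

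In the MHC class I family 4 of 10 tested members were higher and 6 lower in transgenic livers, with a median difference of -0.008. B2m read 15535.2 to 23311.3 in transgenic livers (median 17503.5) and 16906.5 to 24025.5 in wildtype livers (median 21016.7). Transgenic animal 2 was the lowest of all and wildtype animal 9 the highest by intensity. The log2 level was 14.18 ± 0.19 (SD, n = 7) against 14.28 ± 0.13 (SD, n = 9), which differ by -0.10 (SE 0.085). H2-Q2 read 7536.0 to 10665.7 in transgenic livers (median 8605.8) and 7451.4 to 9896.1 in wildtype livers (median 8134.1), and differed by 0.073 (SE 0.078).

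H2-T10 differed by -0.005 (SE 0.41) with all animals and by -0.084 (SE 0.12) without transgenic animal 6 and wildtype animal 5. H2-T23 differed by 0.094 (SE 0.17) and, without them, by 0.060 (SE 0.073). H2-Q5 differed by 0.098 (SE 0.13) and by 0.090 (SE 0.097) without them, and H2-Q6 by -0.11 (SE 0.19) and by -0.16 (SE 0.14). Without both animals H2-Q8 differed by -0.056 (SE 0.12), beside -0.069 with them. The heavy chain genes without such a step differed by 0.026 (H2-K1), -0.011 (H2-T22) and -0.040 (H2-Q7). H2-Bl and H2-T24 stood above noise on 5 arrays, H2-T18 on 2, H2-D1 on 1, and H2-D4, H2-M10.2, H2-M10.6, H2-Q1 and H2-T3 on 0. H2-Ke6, the dehydrogenase gene, read 1917.5 to 2404.2 in transgenic livers (median 2162.8) and 1815.7 to 2779.5 in wildtype livers (median 2243.7), a difference of -0.042 (SE 0.076). Irf2bpl stood above noise on 1 array.

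Psmb10 and Psmb8, catalytic subunits of the immunoproteasome, were the members of the peptide supply with a named probe. Psmb10 (chr8:105935728-105938392) read 777.0 to 1655.6 in transgenic livers (median 1113.7) and 771.6 to 1422.9 in wildtype livers (median 1034.5). Transgenic animals 3 and 4 were highest and wildtype animal 8 lowest. The log2 level was 10.19 ± 0.35 (SD, n = 7) against 10.07 ± 0.22 (SD, n = 9). Psmb10 differed by 0.12 (SE 0.13) and Psmb8 by 0.049 (SE 0.14).

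All 4 tested class II genes had the higher mean in transgenic livers, by 0.032 (H2-DMa), 0.050 (H2-Ab1), 0.071 (H2-DMb2) and 0.090 (H2-DMb1), with standard errors of 0.14 to 0.23. Of all tested probes 48.7% had the higher mean there. With the first principal component as a covariate all 4 class II genes turned lower, by -0.17 (H2-DMa), -0.16 (H2-Ab1), -0.011 (H2-DMb2) and -0.073 (H2-DMb1). H2-Ab1 encodes the beta chain of a peptide-presenting class II molecule, and the H2-DM genes encode the exchange factor that loads it. H2-Ab1 read 675.0 in transgenic animal 2 and 2832.8 in transgenic animal 7, and these were the ends of the range for all animals. On the log2 scale transgenic animal 7 was highest and transgenic animal 2 lowest for 4 of 4 class II genes. Cd74, the invariant chain of class II, also had its lowest value in transgenic animal 2 (734.8), while its highest was in wildtype animal 5 (3289.5). The summed macrophage markers were highest in transgenic animal 7 (10004.3) and lowest in transgenic animal 2 (384.9). Wildtype animal 8, with a sum of 386.3, read 1148.1 for H2-Ab1, and wildtype animal 9, with 600.7, read 1881.5. Of the 6 animals with the lowest sums, 5 were among the 6 lowest for H2-Ab1, H2-DMa and H2-DMb1, and 4 for H2-DMb2. The B cell markers Ighm and Igkc summed to 1322.7 in transgenic animal 7 and 701.3 in transgenic animal 2, within 393.8 to 1373.2 over all 16. The part of macrophages or B cells in the class II values was not tested, and in bulk RNA fewer cells of a type and less RNA per cell cannot be told apart.

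**Figure D4:**
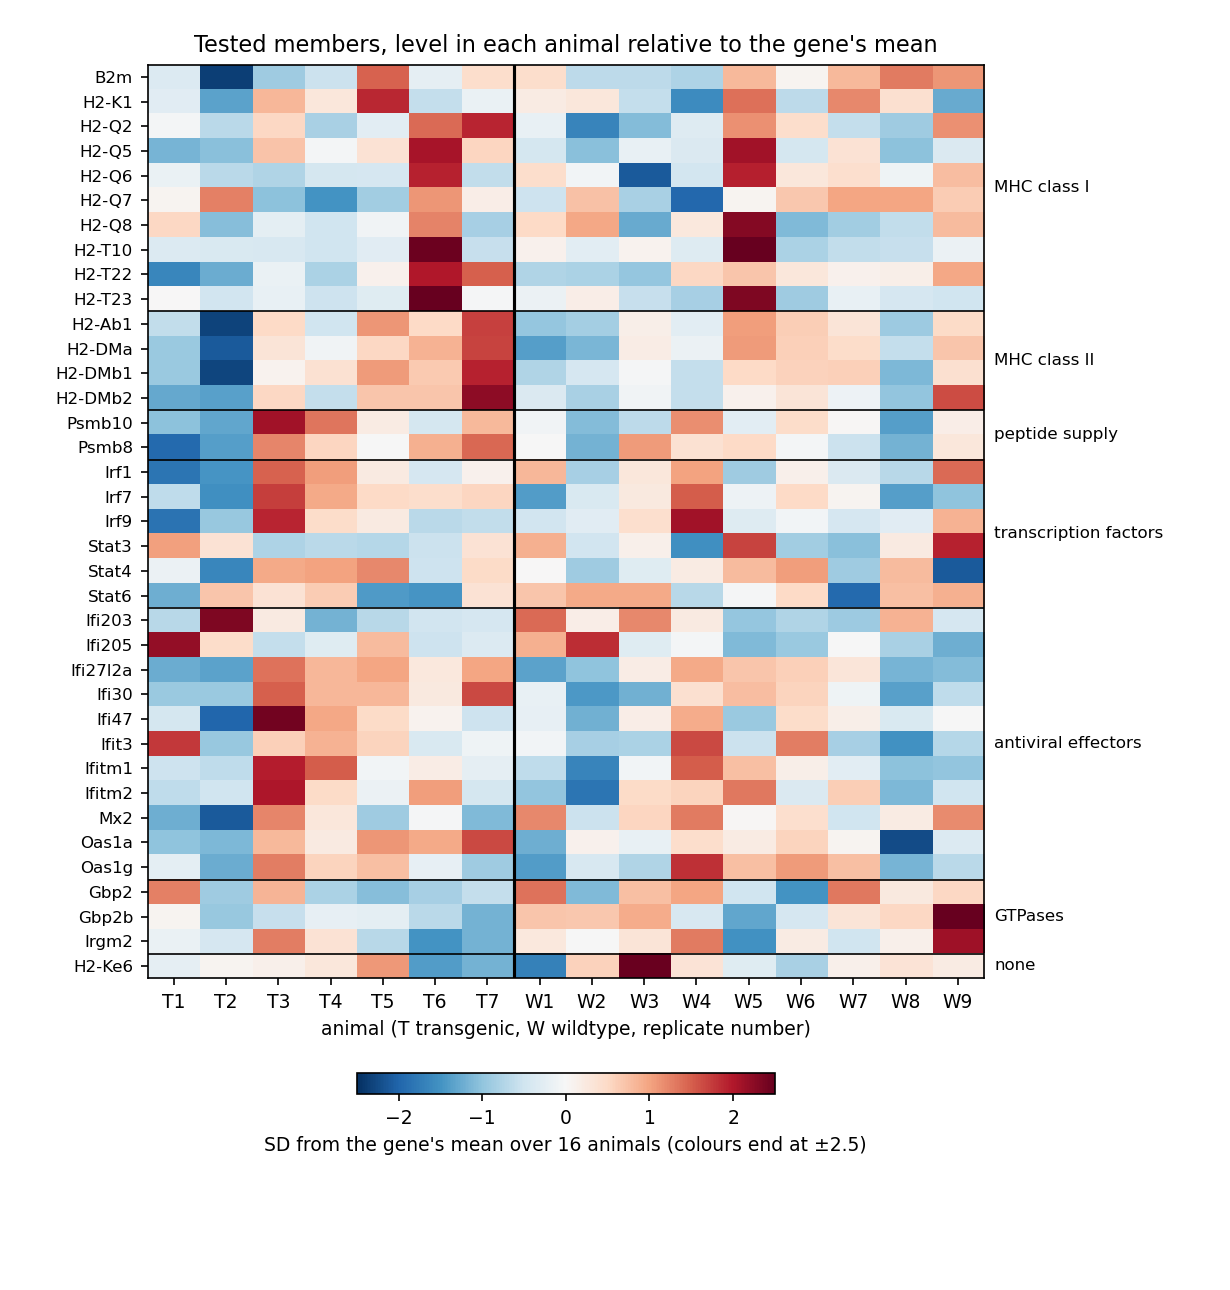
Log2 level of 37 of the 38 tested members (rows, by family) in each animal (columns, T transgenic and W wildtype), as SD from the gene's mean over the 16 animals, with red above and blue below. Transgenic animal 6 and wildtype animal 5 are dark red in several class I rows, such as H2-T10 and H2-T23, but not in all of them. Transgenic animal 7 is dark red in class II rows and transgenic animal 3 in rows of transcription factors and antiviral effectors, while transgenic animal 2 is mostly blue.

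Across animals, different livers were highest in different families. Transgenic animal 3 was highest or second for 7 of 11 antiviral effectors and wildtype animal 4 for 4 of 11. Transgenic animal 6 was highest or second for 8 of 10 class I genes and wildtype animal 5 for 6 of 10. Wildtype animal 9 was highest for Gbp2b, Irgm2 and Stat3. Transgenic animal 2 was lowest or second lowest for 20 of 38 members, and the next such count was 8, in transgenic animal 1. These ranks were not counted over all tested probes, so whether they are particular to the members was not tested.

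The 2 ranges of Ifi27l2a divided the animals as the first principal component of all tested probes did, which held 57.2% of their variance. The 6 animals between 37.0 and 59.4 were transgenic animals 1 and 2 and wildtype animals 1, 2, 8 and 9. Their scores on that component were -31.1 to -25.9, and those of the other 10 were -2.4 to 25.6. In the same 6 the macrophage markers summed to 384.9 to 600.7, with Gpnmb and Mmp12 at or near 0, and in the other 10 to 1672.1 to 10004.3. The hepatocyte markers summed to 61524.9 to 71807.4 in the 6 and to 42560.3 to 59724.4 in the others, and Serpina1a alone read 6735.2 to 9563.2 and 2254.1 to 4679.0. The neutrophil marker S100a9 read 7.2 to 49.4 in the 6 and 27.9 to 286.6 in the others. Irf7 read 24.4 to 51.7 in these 6 and 66.2 to 143.5 in the others. Ifitm1, Ifitm2, Irf7 and Ifi27l2a had the same 6 animals lowest on the log2 scale, which makes 10.5% of members beside 6.0% of all tested probes. At least 5 of the 6 were among the lowest for 26.3% of members, beside 15.8% of all tested probes. For these shares the 6 animals were taken as those of lowest summed macrophage markers. Ifi27l2a, whose low range names the same 6 above, is counted in both member shares, and its own count adds nothing. The shares are descriptions, and the part of macrophage, neutrophil or hepatocyte RNA in the values was not tested.

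The markers B2m, Psmb10 and Mx2 were compared in pairs across the 16 animals, with permutation tests (two-sided, 100000 resamples) and Benjamini-Hochberg adjustment over the 3 pairs. Psmb10 and Mx2 varied together most, with Pearson's r of 0.51 (permutation p 0.0436, adjusted 0.131) and Spearman's rho of 0.47 (permutation p 0.0655, adjusted 0.196), so the relation did not pass after adjustment. Without transgenic animals 3 and 4, the farthest from the median of Psmb10, r was 0.42 (permutation p 0.136), and the relation rests in part on them. Within genotypes r was 0.82 over the 7 transgenic animals (exact permutation p 0.0246, adjusted 0.0738) and 0.56 over the 9 wildtype animals (exact permutation p 0.12, adjusted 0.359). B2m showed r of 0.01 with Psmb10 (rho -0.05, permutation p 0.975 and 0.84) and 0.21 with Mx2 (rho -0.11, permutation p 0.443 and 0.687). Without transgenic animals 2 and 5 these values of r were -0.34 and -0.09.

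**Figure D5:**
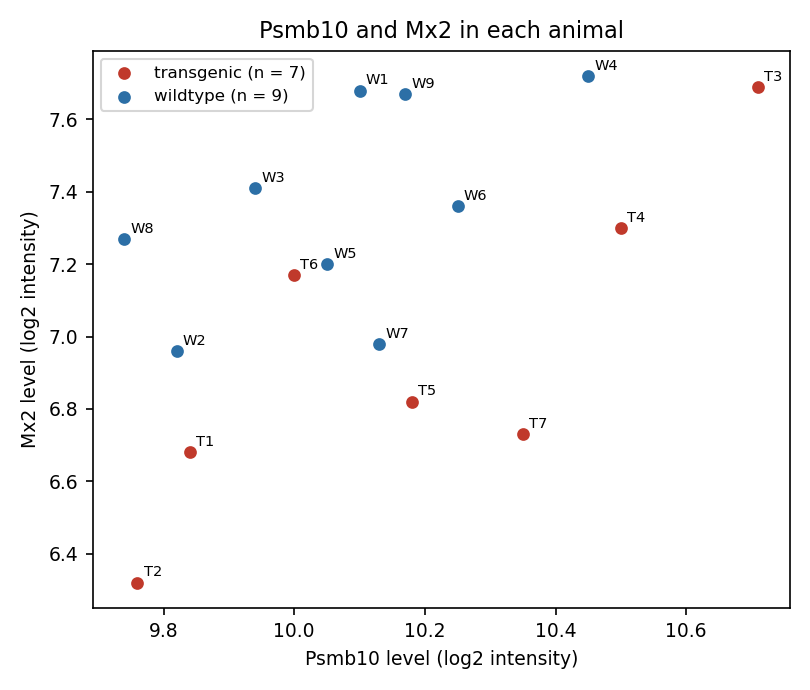
Mx2 log2 level (y axis) against Psmb10 log2 level (x axis) in each animal, red for transgenic (n = 7) and blue for wildtype (n = 9), with the animal's label beside its point. Transgenic animal 2 lies at the lower left, transgenic animal 3 and wildtype animal 4 at the upper right, and r over all 16 is 0.51.

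Of 66 further genes of the pathways (receptors, kinases, inhibitors, sensors, effectors and peptide loading), 33 had a named probe and 25 were tested. In limma 0 of 25 passed after adjustment, beside 0 of 11317 probes, with 11 higher and 14 lower and a median difference of -0.022. At an unadjusted p under 0.05 1 of 25 was counted, beside 2.93% of all tested probes. This was Psme1, a subunit of the proteasome activator PA28, which read 2993.0 to 3995.5 in transgenic livers (median 3563.5) and 2661.5 to 3517.1 in wildtype livers (median 3114.8). Its difference was 0.18 (SE 0.080, adjusted p 0.932 in limma), and 6 transgenic animals were above the wildtype mean. The next by p were Pias1, an inhibitor of Stat proteins, at -0.14 (SE 0.072), the GTPase Igtp at -0.27 (SE 0.18) and Samhd1, which depletes nucleotides needed by viruses, at -0.16 (SE 0.10).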

How the data were processed

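Total liver RNA was labelled with biotin and read on Illumina bead arrays. The deposited table gives an intensity on a linear scale for 24048 probes in each animal. It was made with BeadStudio 1.5.1.3, per the submitters' processing notes. How it was scaled the sources used here do not say. Judged by the deposited intensities, background was already subtracted (30.0% to 33.8% of an array's values are negative), and array means lie at 331.4 to 333.5. A further deposited table with 128 per-sample columns names these by chip position alone and was not used here.

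Probes were named by matching the padded gene number in 9523 identifiers to RefSeq gene identifiers (GRCm38.p6), which succeeded for 8884 (93.3%), and 9 more, B2m among them, by a RefSeq accession in the identifier. In all 8893 probes (37.0%) were named. Intensities were corrected with normexp per array (saddle fit, offset 16), then log2 transformed and quantile normalized, with limma 3.58.1 in R 4.3.3. The offset compresses the folds of dim probes. Probes above 1.645 times the noise SD (root mean square of an array's negative values) on at least 6 arrays were tested with lmFit and eBayes, two-sided, without covariates, with Benjamini-Hochberg adjustment over all 11317 tested probes and a threshold of 0.05. The fit was tested on simulated data with shifts added to normalized log2 levels, so background correction, offset and normalization were not covered. Depth of a bead array is not counted in reads, and the number of arrays limits the precision. Permutation tests and promoter searches used Python 3.11.15 with numpy 2.4.6.

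The rule names every tested member, but 2 members are not reported here by name and are left out of plots, though counts and medians include them. Ranges and medians are given for the 3 markers (B2m, Psmb10 and Mx2), the 6 members of smallest p, the 4 of largest SD and the 4 of highest mean, and of the further pathway genes the 4 of smallest p are named. Values of class I genes that set 2 animals apart, of class II genes, Irf7 and Cd74 were chosen after they were seen. The members, lists and settings were chosen with earlier results of these data known. Alternatives covered offset, background, normalization, probe filter, title number, a principal component, array weights, variance model, probe per gene and each animal left out.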

Additional observations from a re-analysis of the deposited data

Results flagged for a closer look

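Among the 38 tested members, 8 values stood far from their own genotype group by Dixon's test, out of 76 groups looked at, and chance flags about 1 group in 20. Of these, 6 are the step of transgenic animal 6 and wildtype animal 5 in class I genes. On the log2 scale H2-T10 was at 9.26 in transgenic animal 6, with 6.90 next, and at 9.33 in wildtype animal 5, with 7.24 next. H2-T23 was at 11.04 in transgenic animal 6, with 10.12 next, and at 10.96 in wildtype animal 5, with 10.18 next. H2-Q6 was at 7.00 in transgenic animal 6, with 6.17 next. H2-Q5 was at 10.84 in wildtype animal 5, with 10.36 next. The class II exchange factor gene H2-DMb2 was at 8.56 in wildtype animal 9, with 8.18 next among wildtype animals. Ifi203, of the p200 family, was at 6.97 in transgenic animal 2, with 6.58 next among transgenic animals.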

How the results depend on the processing

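The count of members past the threshold was 0 under all 13 alternatives and with each of the 16 animals left out, as was that of the further pathway genes. The count at an unadjusted p under 0.05 (2 members) was 1 without quantile normalization, 3 with a floor of 16, with array weights and with either replicate block, 4 with all probes tested (of 60) and 0 to 3 with an animal left out. It was 0 without transgenic animal 7 or wildtype animal 1, 1 without transgenic animal 2, 5 or 6 or wildtype animal 3, 4 or 9, and 3 without transgenic animal 3 or 4 or wildtype animal 5. The members counted were not always the same. Mx2 was not counted without quantile normalization, with the title number as a fixed replicate block or with array weights. Gbp2b was not counted with the first principal component as a covariate. The median difference of the members was -0.025 to 0.075 with an animal left out.

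The title number is not stated to pair animals, and same-numbered animals of the 2 genotypes did not deviate together (correlation of deviations -0.47 to -0.13). Same-numbered animals within a genotype did, at 0.22 to 0.52 over 6 pairs, beside a median of -0.43 (-0.68 to 0.75) over the other 51 pairs within a genotype. With it as a fixed replicate block 1509 of 11317 probes had an unadjusted p under 0.05, with a lowest adjusted p of 0.15 (limma), and 0.252 among members. Gbp2b was then at -1.0, Oas1a at 0.75 and Ifi30 at 0.48. Only title numbers 9, 12 and 13 hold both genotypes. The difference in this fit therefore rests on transgenic animals 2 to 6 and wildtype animals 3, 8 and 9. On the first principal component, transgenic animals 3 to 6 scored 17.9 to 25.6, and wildtype animals 8 and 9 scored -28.1 and -25.9. For title numbers 12 and 13 the fit therefore cannot separate genotype from that component. For title number 9 the scores were -31.1 in transgenic animal 2 and -2.4 in wildtype animal 3. Wildtype animal 9 was the highest of all for Gbp2b. As a random replicate block, with a correlation of 0.168, the title number gave 460 probes. With array weights the count was 1197 probes.

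Of 483 member differences under the alternatives, 451 kept their sign and 32 changed it, in 17 genes, and 0 were called. The cause was not tested. With offset 50 Oas1g was -0.002, and with a floor of 16 on the deposited values H2-DMa was -0.026. Without quantile normalization Oas1g was -0.021, H2-T10 0.073 and H2-T22 0.023, the r of B2m with Psmb10 was -0.27 and that with Mx2 was -0.15. With cyclic loess Oas1g was -0.036 and H2-T10 0.044. With the fixed replicate block H2-Ab1 was -0.071, H2-Q6 0.22, H2-DMa -0.11, H2-DMb2 -0.031, H2-Q8 0.098, H2-T10 0.60 and H2-T22 0.007, and with the random replicate block H2-T10 was 0.093. With the first principal component (57.2% of variance) as a covariate H2-Ab1 was -0.16, H2-DMb1 -0.073, H2-Q5 -0.015, Ifi203 0.016, Psmb8 -0.069, Stat3 0.008, Oas1g -0.12, Ifi27l2a -0.084, H2-DMa -0.17, H2-DMb2 -0.011, H2-Q7 0.004 and Ifi47 -0.024. With array weights H2-Q8 was 0.009, H2-T10 0.22, H2-T22 0.052 and Irf1 0.064. Leaving out transgenic animal 6 and wildtype animal 5 together, chosen after seeing the data, put Stat3 at 0.006.

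With an animal left out, 14 members changed sign, with these lowest and highest differences. The class II genes ranged from -0.084 to 0.24 (H2-Ab1), -0.093 to 0.19 (H2-DMa), -0.03 to 0.25 (H2-DMb1) and -0.032 to 0.14 (H2-DMb2). The class I genes ranged from -0.022 to 0.065 (H2-K1), -0.09 to 0.004 (H2-Q7), -0.14 to 0.012 (H2-Q8), -0.36 to 0.27 (H2-T10), -0.086 to 0.048 (H2-T22) and -0.05 to 0.2 (H2-T23). The others were Ifi47 at -0.043 to 0.21, Irf1 at -0.17 to 0.02, Oas1g at -0.061 to 0.067 and Psmb8 at -0.012 to 0.14. Psmb10 (0.033 to 0.19), B2m (-0.15 to -0.049), Irf7 (0.1 to 0.31) and Ifi27l2a (0.35 to 0.89) kept their sign but moved widely. Dim probes limit what can be seen, since 22 members stood above noise on at most 5 arrays.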
